A study of Arabidopsis thaliana with 6 samples.

Results

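Ethylene reChIP peaks for ENAP1 and EIN2 were set against ENAP1 ChIP peaks from seedlings kept in ethylene, to describe which ENAP1 sites gained EIN2 signal. A pair is a reChIP peak and an ENAP1 peak that share at least 1 bp. Of 9881 ethylene reChIP peaks, 1719 overlapped an ethylene ENAP1 peak (17.4%), and of 8858 ethylene ENAP1 peaks, 1682 overlapped an ethylene reChIP peak (19.0%). They are among 37625 peaks in the 4 lists of the series. Of the ENAP1 peaks in pairs, 1642 held 1 reChIP peak, 38 held 2 and 2 held 3, and 5 reChIP peaks bridged a pair of ENAP1 peaks, which gave 1724 pairs.

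EIN2 is a membrane protein of the endoplasmic reticulum that relays the ethylene signal. When ethylene is perceived, the carboxyl-terminal part of EIN2 is cut off and enters the nucleus. ENAP1 is a nuclear protein that associates with this part of EIN2. In reChIP, DNA precipitated through one protein is precipitated again through another, so that DNA carrying both is sought.

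The samples were whole Arabidopsis Col-0 seedlings, 3 days old, grown in the dark at 24 °C and then held for 4 hours in hydrocarbon-free air, either alone or with 10 ppm ethylene. For ENAP1 the antibody was one against green fluorescent protein (GFP), and the reChIP followed it with an EIN2 antibody. The labels name no construct for a tagged ENAP1. Each group had 1 library, so no value has a replicate check and no p-value was computed; the 95% intervals given are exact binomial ones, for counting error alone. Whole seedlings were used, so weak binding in many cells and strong binding in few cells cannot be told apart.

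After removal of duplicates the ethylene reChIP library kept 304818 tags, 28.9 times fewer than the 8811720 of the ethylene ENAP1 ChIP library. Of the tags that the peak caller read for it, 83% were duplicates. Its peaks were called against the air reChIP library (644263 tags) and not against input. An ethylene reChIP peak therefore marks a called gain over air, and gain is meant in this sense below. By the peak caller's q-value, 4196 of the 9881 peaks in this list had a q above 0.05. A called peak is thus not by itself an established gain. Pileup is the number of tags that overlap at a peak's summit, and in this list 79.9% of peaks had a pileup of 5 or less. An ENAP1 site without a reChIP peak had no gain that this depth could show, and may still carry EIN2. No reChIP with an unrelated antibody was analysed here, so ENAP1-bound DNA that came through the second precipitation without EIN2 cannot be told apart from DNA that carried EIN2.

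The more tags a reChIP peak had, the more often it lay on an ENAP1 site. Of reChIP peaks with 2 or 3 tags, 4.63% (3.95 to 5.38) overlapped an ENAP1 peak. The share was 9.30% at 4 tags, 17.8% at 5 tags and 38.5% (35.8 to 41.2) at 6 or 7 tags. It reached 70.5% (66.3 to 74.4) at 8 to 10 tags and 95.2% (90.4 to 98.1) at 11 to 15 tags, where 140 of 147 peaks lay on an ENAP1 site. ENAP1 peaks cover 2.18% of the genome size used for peak calling. This is a share of bases. The share of peaks that would overlap by at least 1 bp at random positions is another measure and was not computed. Above 15 tags the share was 71.1% (54.1 to 84.6) of 38 peaks. All 11 of these with a control level under 5 times the list median overlapped an ENAP1 peak, against 16 of the 27 with a higher one. The control level is the background that the peak caller expected at the summit, here from the surrounding air reChIP tags.

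**Figure D1:**
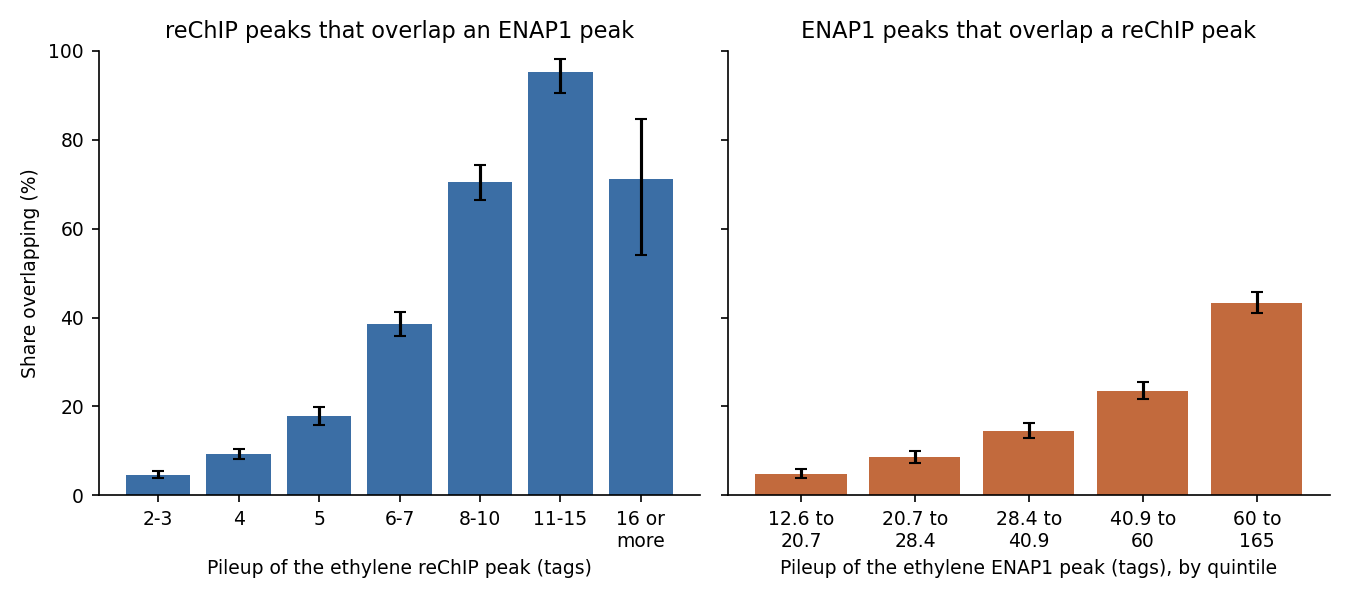
Share of peaks that overlap a peak of the other list, in percent, for ethylene reChIP peaks by their pileup in tags (left) and for ethylene ENAP1 peaks by quintile of their pileup (right); bars are shares and lines exact binomial 95% intervals. The left share climbs from 4.63% at 2 or 3 tags to 95.2% at 11 to 15 tags, and the right share from 4.91% in the lowest quintile to 43.3% in the highest.

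The air pair of lists had lower shares at the same pileups from 4 tags on. Of air reChIP peaks, 41.0% (36.2 to 45.9) overlapped an air ENAP1 peak at 8 to 10 tags and 64.9% (51.1 to 77.1) at 11 to 15 tags. Above 15 tags 5 of 195 did (2.56%). Over the whole air list the share was 11.3%. The air reChIP list was called against input, from another depth, so the control differs together with the treatment and their parts cannot be told apart.

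Read from the ENAP1 side, sites with many ENAP1 tags gained EIN2 signal most often. The share with a reChIP peak was 4.91% (3.95 to 6.02) in the lowest quintile of ENAP1 pileup, then 8.64%, 14.6% and 23.5%, and 43.3% (41.0 to 45.6) in the highest quintile. It was 73.0% (63.2 to 81.4) for the 100 ENAP1 peaks of highest pileup and 80.0% (66.3 to 90.0) for the highest 50. ENAP1 peaks in pairs had a median pileup of 56.2 tags, and those in no pair 30.6 tags. The pileup of a reChIP peak and that of its ENAP1 peak had a Spearman rho of 0.66 over the 1724 pairs, a description across sites that share their libraries.

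Fold enrichment of ENAP1 over input, the authors' value for each peak, separated the sites much less. The share with a reChIP peak was 16.7% in the lowest quintile of ENAP1 fold, 13.8% in the next and 31.2% (29.1 to 33.4) in the highest. Within the highest quintile of ENAP1 pileup, the share lay between 41.2% and 46.5% in each quintile of fold, with no rise from low to high. Within the lowest quintile of fold, in contrast, the share rose from 4.19% to 47.4% with ENAP1 pileup. ENAP1 pileup and the input level under the same peaks had a Spearman rho of 0.73 over the 8858 peaks. The share with a reChIP peak rose with that input level as well, from 7.96% (6.74 to 9.32) in its lowest quintile to 34.6% (32.4 to 36.9) in its highest; the part of the input level in the result was not tested.

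Wider ENAP1 peaks also gained reChIP peaks more often. The share was 8.80% (7.53 to 10.2) in the lowest quintile of ENAP1 peak width and 32.7% (30.5 to 35.0) in the highest. Within the highest quintile of pileup it was 37.2% (32.1 to 42.4) for the narrowest quintile of peaks and 54.4% (49.03 to 59.6) for the widest. A wider peak offers more bases to an overlap of 1 bp, and the part of width in the result was not tested.

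**Figure D2:**
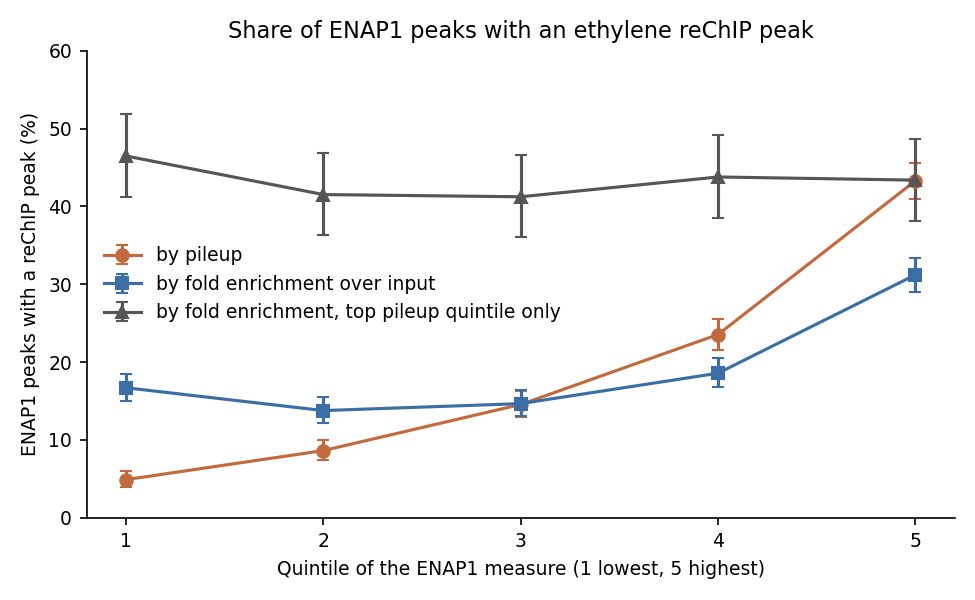
Share of ethylene ENAP1 peaks that overlap an ethylene reChIP peak, in percent, by quintile of ENAP1 pileup, by quintile of ENAP1 fold enrichment, and by quintile of fold within the highest pileup quintile; points are shares and lines exact binomial 95% intervals. The pileup line rises at each step, the fold line rises mainly in the highest quintile (31.2%), and the line within the highest pileup quintile stays between 41.2% and 46.5%.

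ENAP1 pileup was also compared inside single genes. Of 250 genes nearest to at least 2 ENAP1 peaks of which exactly 1 was in a pair, the peak in the pair had the highest ENAP1 pileup of the gene in 194 (77.6%) and the highest fold in 139 (55.6%). Of these genes, 204 had 2 ENAP1 peaks.

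ENAP1 itself had been at most ethylene ENAP1 sites in air, in pairs or not. An air ENAP1 peak overlapped 1530 of the 1682 ENAP1 sites in pairs and 5516 of the 7176 in no pair. Over all 8858 ethylene ENAP1 sites the count was 7046. Of the sites shared with air, 21.7% (20.8 to 22.7) had a reChIP peak, against 8.39% (7.15 to 9.76) of those found in ethylene alone. The ethylene-alone sites in pairs had a median pileup of 28.1 tags. Among sites with an ENAP1 pileup at or above the list median, the shares were 30.1% (28.7 to 31.5) of 4228 shared sites and 22.3% (17.4 to 27.9) of 260 ethylene-alone sites. In the highest quintile of ENAP1 pileup they were 43.3% of 1752 shared sites and 45.0% (23.1 to 68.5) of 20 ethylene-alone sites. At sites with a peak in both ENAP1 lists, ENAP1 pileup was also taken relative to the median of its own list. This scaling removes any change common to all sites, so it cannot show one. The median log2 difference, ethylene minus air, was -0.07 (quartiles -0.19 and 0.06) at sites in pairs. At sites in no pair it was -0.06 (quartiles -0.23 and 0.09).

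Around the sites in pairs the air reChIP control level was mostly above its floor. The control level was at its floor of 0.371 tags, the average over the genome, for 12.6% of reChIP peaks in pairs and for 37.0% of all ethylene reChIP peaks. Of the 115 reChIP peaks with a control level of at least 5 times the list median, 95 lay on an ENAP1 peak (82.6%; 74.4 to 89.0). At equal pileup the order was the same: of peaks with 8 to 10 tags, 54.5% (46.3 to 62.6) overlapped an ENAP1 peak where the control level was under 2 times the median, 75.9% (70.8 to 80.6) where it was 2 to under 5 times, and 85.4% (72.2 to 93.9) above. A called air reChIP peak lay under 85 of the reChIP peaks in pairs, and 104 ethylene reChIP peaks in all overlapped one.

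Within a pair, the distance between summits was bounded by the overlap rule. ReChIP peaks in pairs had a median width of 188 bp, and ENAP1 peaks in pairs 313.5 bp. The distance expected from these widths was not computed. The median distance was 43 bp (quartiles 19 and 95 bp), 76.3% of pairs had summits at most 100 bp apart, and 88.1% of reChIP summits lay inside the ENAP1 peak. For the 106 pairs with a reChIP −log10 q of at least 5, the median was 26 bp and 92.5% were at most 100 bp apart. Pairs with a q above 0.05 had a median of 62 bp. At the edge of the matching rule, 12 pairs shared only 1 to 10 bp, and a further 15 reChIP peaks ended within 10 bp of an ENAP1 peak without reaching it, with 107 within 100 bp.

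**Figure D3:**
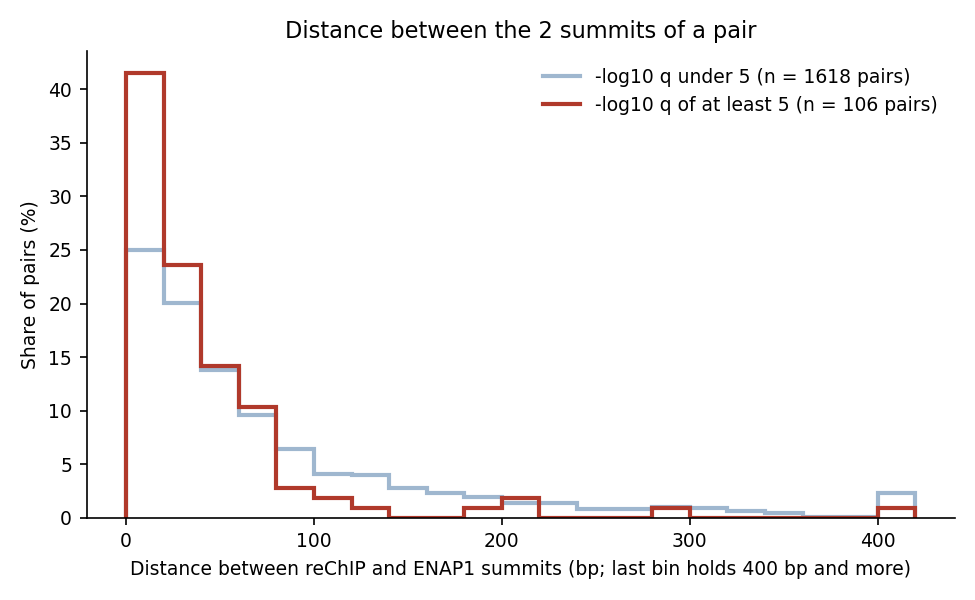
Distance in bp between the reChIP summit and the ENAP1 summit of a pair (bins of 20 bp), as a share of pairs in percent, for pairs with a reChIP −log10 q under 5 and of at least 5. Both lines peak in the first bin, and 92.5% of the pairs with −log10 q of at least 5 have summits at most 100 bp apart.

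ReChIP peaks in pairs, chosen by their overlap with ENAP1 peaks, lay at other genome positions than the remaining reChIP peaks. Of those in pairs, 39.7% (37.4 to 42.0) had a summit that lay in a protein-coding gene, at most 200 bp from either end, against 9.59% (8.96 to 10.3) of those in no pair. Only 3.96% of them lay over 1000 bp from such a gene, against 17.8% of the others, and 0.524% lay in a pseudogene, against 7.56%. Long noncoding RNA genes held 3.72% (2.88 to 4.73) of those in pairs and 2.095% of the others. Of ENAP1 summits, 46.1% in pairs and 42.0% in no pair lay within 200 bp inside a gene edge. The matching rule carries these ENAP1 positions over to the reChIP peaks in pairs, so the contrast above is no independent trait of those peaks. Starts and ends of genes were pooled, since the gene table gave no strand.

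ENAP1 sites deeper inside genes gained reChIP peaks somewhat more often than those at gene edges. The share was 24.8% (23.2 to 26.6) for ENAP1 summits more than 200 bp inside a gene, 20.5% (19.2 to 21.8) for those within 200 bp inside an edge, and 13.1% (11.1 to 15.4) for those outside but within 200 bp. It was 9.43% (7.67 to 11.4) for those outside by more than 200 and up to 1000 bp, and 10.8% (8.45 to 13.5) for those farther away. In the highest quintile of ENAP1 pileup the values for these classes, in the same order, were 49.3% (45.5 to 53.2), 38.3% (35.1 to 41.6), 36.6% (27.3 to 46.8), 46.9% (34.3 to 59.8) and 61.1% (43.5 to 76.9). There the share did not fall with distance from genes; the last 2 classes held 64 and 36 sites. Where both summits of a pair lay in 1 gene, the reChIP summit was farther from the edge in 790 of 1334 pairs and nearer in 528. The edge distance of the reChIP summit minus that of the ENAP1 summit had a median of 13 bp over the 1334 pairs. In the 90 pairs with −log10 q of at least 5 the counts were 48 and 38, and the median was 3.5 bp.

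By gene, 1575 of 27444 protein-coding genes (5.74%) were the nearest gene, within 1000 bp, to the reChIP summit of a pair, and 101 (0.368%) to a pair with −log10 q of at least 5. In those 106 pairs the reChIP pileup ran from 8 to 47 tags with a median of 12, and the control level had a median of 0.794 tags. Their ENAP1 pileup ran from 30.02 to 165 tags with a median of 86.8. Of the 105 ENAP1 peaks among them 101 overlapped an air ENAP1 peak, beside 7046 of all 8858 ethylene ENAP1 peaks. In the highest quintile of ENAP1 pileup 1752 of 1772 did, in pairs or not. An air reChIP peak overlapped 9 of the 106 reChIP peaks, beside 104 of all 9881.

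The pair with the lowest q lay in AT2G31590 (chromosome 2, 13446832-13447350). The reChIP pileup was 43 tags in ethylene over an air control level of 7.57 tags, and an air reChIP peak of 20 tags lay there too. Pileups of called air reChIP peaks, here and below, come from a library with 2.11 times the tags of the ethylene one. They are therefore not on the scale of the ethylene pileups, whereas the air control level was scaled to the ethylene library. The ENAP1 peak, 2387 bp wide, had the highest pileup of both ENAP1 lists, 165 tags in ethylene and 269 in air. ENAP1 pileups of the 2 lists were scaled to different library sizes, so a higher value in air is no difference between treatments. AT2G32150 (chromosome 2, 13660332-13660594) had the highest reChIP fold of the list, 10.2, with 17 tags over 0.760, and no air reChIP peak. Its ENAP1 peak had 87.9 tags and a fold of 3.56. AT1G03440 had 20 tags over 1.42, at an ENAP1 peak of 93.9 tags and 3.06-fold. Both ENAP1 folds were above the list median of 2.86, and far below the highest of the list, 17.4.

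ETR2, an ethylene receptor gene, was the pair with the highest ENAP1 fold of the list. Its reChIP peak (chromosome 3, 8254600-8254769) had 12 tags over an air control level of 0.473 and lay in an ENAP1 peak (8254370-8254908) of 124 tags and 17.4-fold. The summits were 8 bp apart and lay within 200 bp inside a gene edge. In air ENAP1 had a peak of 190 tags and 13.6-fold there, and no reChIP peak. A further ENAP1 peak in the region outside ETR2 (8253736-8253942, 33.8 tags) had no reChIP peak. ETR2 was not the nearest gene of that peak.

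HUB2, which encodes a ligase that puts ubiquitin on histone H2B, had 13 reChIP tags over 0.553 (chromosome 1, 20607019-20607198) at an ENAP1 peak of 91.7 tags in ethylene and 132 in air. GER2, a gene of GDP-fucose synthesis, had 15 tags over 0.829, with the summit 1 bp outside the gene. AT5G14850, AT2G13660, AT1G01300, AT5G63080, AT1G11200, AT1G05840 and AT3G59070 had 11 to 14 tags over 0.371 to 0.553, and ENAP1 pileups of 78.1 to 111 tags. AT5G13760 and AT5G11310 had 18 and 17 tags over 1.42, and AT3G28335 had 24 over 2.84. None of these genes had an air reChIP peak at the site, and each had an air ENAP1 peak. A further 2 of the 20 pairs with the lowest q had no protein-coding gene within 1000 bp (chromosome 4, 11416673-11417069, 32 tags, with an air reChIP peak of 12 tags; chromosome 1, 1477403-1477941, 17 tags).

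**Figure D4:**
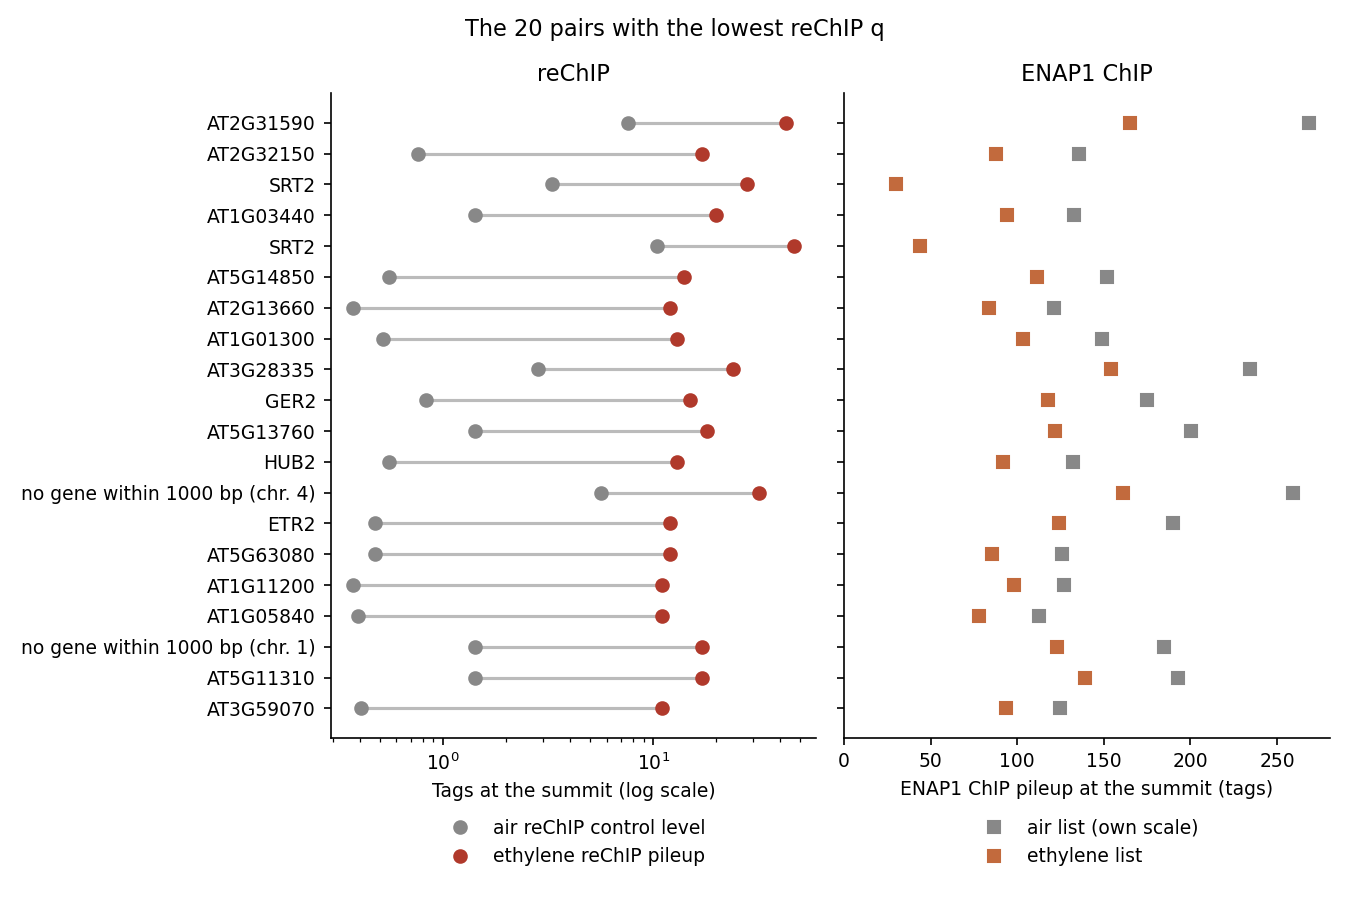
The 20 pairs with the lowest reChIP q, named by the nearest protein-coding gene: on the left the ethylene reChIP pileup and the air reChIP control level in tags (log scale), on the right the ENAP1 ChIP pileup in tags in the ethylene and in the air list, which are scaled to different library sizes. ReChIP pileups lie between 11 and 47 tags, control levels between 0.371 and 10.4, and only the SRT2 pairs lack an air ENAP1 peak.

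SRT2, a sirtuin gene, stood apart from the other strong pairs. It held 3 reChIP peaks of 47, 32 and 28 tags, over air control levels of 10.4, 7.10 and 3.31 tags, and called air reChIP peaks of 24, 21 and 12 tags lay under them. The ENAP1 peaks there had only 43.7 and 30.02 tags, and no air ENAP1 peak overlapped them. Among the other pairs with −log10 q of at least 5, sites with ENAP1 pileups of 33.8 and 44.8 tags also lacked one. The SRT2 peak of 28 tags had its summit 767 bp from the ENAP1 summit. Sites with 3 reChIP peaks in pairs were also counted for UCN, AT3G01430 and IP5PII, with highest pileups of 11, 9 and 5 tags; in all 72 genes had at least 2.

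The next 20 pairs in order of q, ranks 21 to 40, were taken as a block after the values were seen and form no gene group. Their reChIP pileups ran from 10 to 32 tags, over air control levels of 0.414 to 7.10, and their ENAP1 pileups from 30.02 to 136 tags. HY5, ERF6 and the remaining SRT2 peak were among them. GTE7, which encodes a bromodomain protein, had 12 reChIP tags over 0.622. SCAMP2, which encodes a secretory carrier membrane protein, had 10 over 0.414, and EIF3E, which encodes a subunit of a translation initiation factor, had 15 over 1.31. An air reChIP peak lay under 2 of the 20, those at EIF3E (7 tags) and SRT2.

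Ethylene receptors were in pairs at 3 of 5 genes, beside 5.74% of all protein-coding genes, and all 5 were the nearest gene of an ENAP1 peak, beside 26.3% of all. After ETR2, ETR1 had a weak reChIP peak of 6 tags over 0.946 (chromosome 1, 24734161-24734311) on an ENAP1 peak of 61.7 tags, with summits 13 bp apart. ERS2 had 4 tags over 0.484 on an ENAP1 peak of 31.7 tags that had no air counterpart. EIN4, with an ENAP1 pileup of 38.8 tags, had no reChIP peak, and at ERS1, with an ENAP1 pileup of 19.7 tags, a reChIP peak of 4 tags lay apart from it.

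Among the 15 genes that act downstream of the receptors or modify them, 8 were nearest to an ENAP1 peak (53.3%) and 2 were in pairs (13.3%). The shares over all protein-coding genes were 26.3% and 5.74%. CTR1, the kinase that keeps the pathway off without ethylene, had 4 reChIP tags over 0.553 with q above 0.05. EBF1, which encodes an F-box protein that removes EIN3, had 7 over 0.946, but the summits were 405 bp apart and the ENAP1 peak had only 19.7 tags. EIN3, a transcription factor gene at the end of the pathway, and EBF2 had no ENAP1 peak.

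Ethylene response genes were in pairs at 5 of 19 (26.3%), beside 5.74% of all protein-coding genes. Of the 19, 9 were nearest to an ENAP1 peak (47.4%), beside 26.3% of all. The highest ENAP1 pileup at these 9 genes had a median of 60.6 tags. ERF6, ERF-1, ERF4 and ERF104 encode transcription factors of the ERF family. ERF6 had the strongest gain, 13 tags over 0.898 (chromosome 4, 9752936-9753235), at an ENAP1 peak of 94.98 tags and 2.82-fold, with summits 8 bp apart. ERF-1, a neighbour of ERF6 on chromosome 4, had 8 tags over 0.898 and an ENAP1 pileup of 78.6. ERF4 had 7 over 0.473, ERF104 had 7 over 0.484, and TEM1 had 4 over 1.11 with q above 0.05. None of the 5 had an air reChIP peak at the site. ERF1, with an ENAP1 peak of 35.5 tags, had no reChIP peak, and HLS1, a regulator of the apical hook, was near no peak of the 4 lists.

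Light signalling genes were in pairs at 2 of 20 (10%), beside 5.74% of all protein-coding genes. HY5, which encodes a bZIP factor of seedling development in light, had 12 reChIP tags over 0.553 (chromosome 5, 3594242-3594458) at an ENAP1 peak of 87.9 tags. PIF5 had 9 over 0.622 at an ENAP1 peak of 75.3 tags. COP1, with an ENAP1 pileup of 62.8 tags, had no reChIP peak. Histone acetylation genes were in pairs at 4 of 25 (16%). These were SRT2, the deacetylase gene HDA15 (5 tags over 0.473), the acetyltransferase gene HAG1 (5 over 0.946) and HD2C (5 over 1.42). HAG1 and HD2C had q above 0.05. HAM1 and HAM2 had ENAP1 pileups of 94.4 and 83.5 tags and were in no pair. Histone H2B ubiquitination genes were in pairs at 2 of 6 (33.3%), HUB2 and UBC1 (5 tags over 0.946, q above 0.05).

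Housekeeping genes of abundant transcription were nearest to an ENAP1 peak at 13 of 20 (65%, beside 26.3% of all protein-coding genes). In a pair was 1 of 20 (5%), close to the 5.74% of all protein-coding genes. It was the translation factor gene AT1G07930 (8 tags over 1.89), where an air reChIP peak of 5 tags was also called. The highest ENAP1 pileup at these 13 genes had a median of 25.1 tags, and the actin gene ACT2, at 56.2 tags and 7.28-fold, had no reChIP peak. Auxin genes were nearest to an ENAP1 peak at 9 of 23 (39.1%) and in a pair at 0, beside 26.3% and 5.74% of all. Their highest ENAP1 pileups had a median of 31.1 tags, with ARF6, an auxin response factor gene, at 74.2 tags. Of ethylene synthesis genes 1 of 15 was in a pair, the ACC oxidase gene ACO4 (7 tags over 0.408). Of floral and meristem regulators 1 of 15 was, FLC (4 over 0.456). Each of these shares was 6.67%, near the 5.74% of all protein-coding genes. Differences between lists were not tested.

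**Figure D5:**
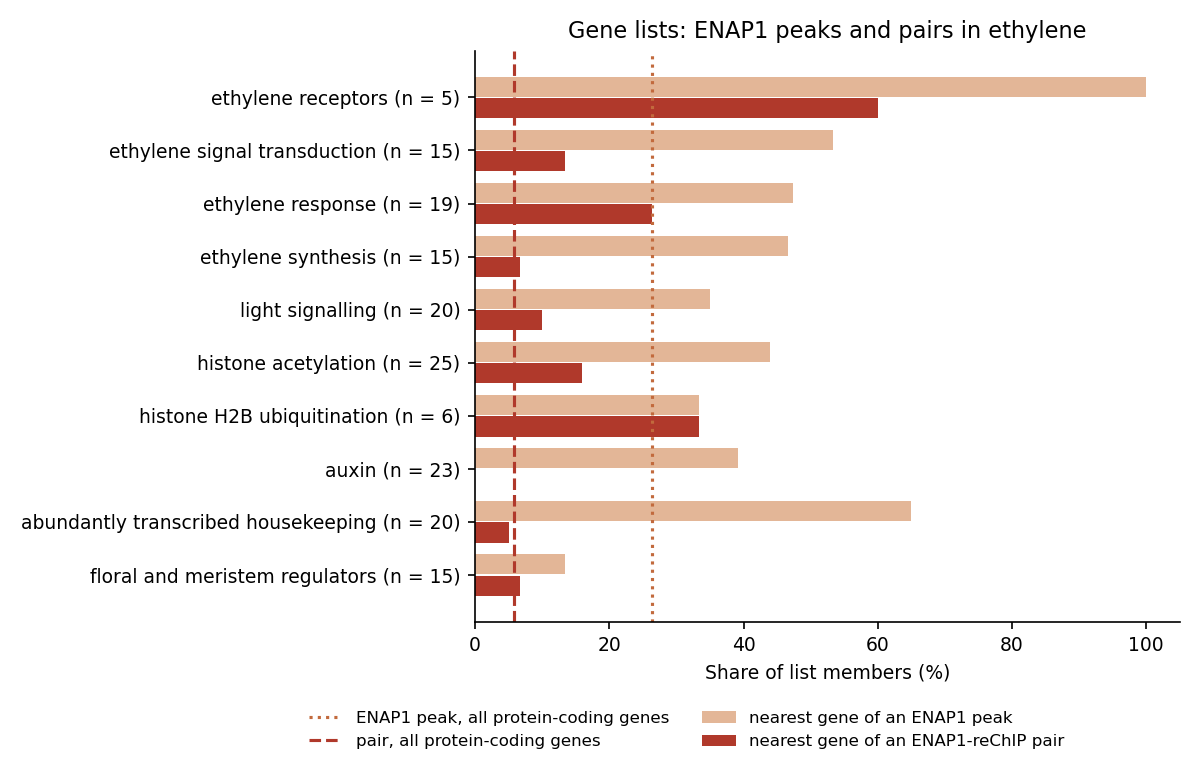
Share of the members of 10 gene lists, in percent, that are the nearest protein-coding gene of an ethylene ENAP1 peak and of an ENAP1-reChIP pair; vertical lines give the same shares over all 27444 protein-coding genes (26.3% and 5.74%). Of the housekeeping genes 13 of 20 have an ENAP1 peak and 1 a pair, and of the auxin genes 9 of 23 and 0.

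Several of the strongest ENAP1 peaks gained no reChIP peak. The 10 with the lowest ENAP1 q lay at AT4G19220, AT3G06660, APD1, AT5G04250, AT3G24929, AT1G55675, AT3G27220, PHB2, AT1G19430 and NUDT5, with pileups of 94.4 to 129 tags and folds of 10.6 to 15.6. At 7 of these sites the air reChIP list held a peak, of 4 to 11 tags, and APD1, AT5G04250 and AT1G19430 had none. Over the whole list, 13.7% (11.6 to 16.1) of ENAP1 sites with an air reChIP peak were in pairs, against 19.6% (18.7 to 20.5) of the others. In the highest quintile of ENAP1 pileup these shares were 30.3% (25.3 to 35.7) and 46.1% (43.6 to 48.7). The air reChIP library is the control of the ethylene list; its part in these shares was not tested.

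Among the 133 strongest reChIP peaks (−log10 q from 5 up), 106 lay on an ENAP1 peak and the rest on none. The highest covered 2069 bp of EIN2 itself (chromosome 5, 791045-793113) with 272 tags over an air control level of 57.2, which is 138 times the list median, and an air reChIP peak of 96 tags lay under it. The air ENAP1 list held peaks of 1.89-fold and 1.94-fold there. The nearest ENAP1 peak, just outside the gene (793334-793876), had 142 tags, and the gap between them was 221 bp. A peak of 173 tags on chromosome 2 (2938497-2938727) had a control level of 102 tags and no protein-coding gene within 1000 bp. The air reChIP peak there had 183 tags, on the scale of the deeper air library. The other 8 of the 10 lowest in q lay inside AT5G19120, AT4G22530, AT1G72100, AT3G04590, AT5G41770, AT2G16676, AOS and AT1G21680, with 9 to 14 tags over 0.371 to 0.622. The peak in AOS, a gene of jasmonate synthesis, lay 70 bp from an ENAP1 peak. AOS also held a weaker reChIP peak that was in pairs, with 8 tags over 0.622. It bridged ENAP1 peaks of 74.2 and 62.2 tags. AT4G22530 had an air ENAP1 peak of 1.85-fold. At ENAP1 (AT3G11100) a pair was called with 77 reChIP tags over 39.7, a fold of 1.91, at an ENAP1 peak of 111 tags. In air, over input and on the scale of the deeper library, a reChIP peak of 78 tags lay there too. Whether DNA of an introduced copy of EIN2 or ENAP1 was part of the signal at these genes was not tested.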

How the data were processed

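Peaks of 4 libraries were used as deposited: ENAP1 ChIP and ENAP1-EIN2 reChIP, each in air and in ethylene. Inputs were used only through the authors' lists. The submitters' processing notes list BWA and the build TAIR10. Per the file headers, the authors called peaks with MACS2 2.1.0.20150603 for each library against 1 control, at p 0.01, keeping 1 tag per position, for a genome of 120000000 bp, and no libraries were pooled. The ethylene ENAP1 list had an input of 4809861 tags as control, and the ethylene reChIP list the air reChIP library. Each deposited list holds a pileup signal at the summit, counted in tags after scaling towards the smaller library, a fold ratio against local background, and −log10 values of the p-value and q-value. Per the file headers q was not to be computed, yet its column is filled and was used. For ethylene samples, titles and descriptions were followed where the labels' treatment entry read air.

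Overlaps were computed with Python 3.11.15, pandas 2.3.3 and SciPy 1.17.1, and checked on simulated peaks. The control level was computed as (pileup + 1) / fold - 1. The gene table was RefSeq's for assembly TAIR10.1; it gave no strand, and its coordinates are not printed. In it 42.8% of ethylene ENAP1 summits lay within 200 bp inside a gene edge, and at most 10.7% after shifts of 1000 to 10000 bp. Of 165 list symbols 164 matched, to 163 genes. No genome sequence was used here. Named genes were the 20 pairs with the lowest reChIP q, the 10 lowest in q on no ENAP1 peak and the 10 ENAP1 peaks lowest in q without a reChIP peak, up to 4 members per list, and 8 fixed genes (HLS1, ERF1, ETR2, EBF2, EBF1, EIN3, EIN2, ENAP1); unpaired list members with values, TEM1, genes with several peaks and those of the next 20 pairs were named after their values were seen. The comparison, the members and the lists were chosen with earlier results of these data known.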

Additional observations from a re-analysis of the deposited data

How the results depend on the processing

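The count of genes in pairs (1575) fell under each of its 4 alternatives, by less than 1.5 times. It was 1349 with the reChIP summit inside the gene only and 1545 within 500 bp. With a reChIP −log10 q of at least 1.3 it was 1270, and with summits at most 100 bp apart 1235. The share of reChIP peaks on an ENAP1 peak (17.4%) was 8.90% with overlap of at least 50% of both peaks, 13.3% with summits at most 100 bp apart, 24.1% with a reChIP −log10 q of 1.3 or more, 12.8% for ENAP1 peaks with −log10 q of at least 5, 23.5% for reChIP fold at or above the median, 88.2% for reChIP pileup of at least 10, 16.6% for control levels under 5 times the median, and 18.4% with air ENAP1 peaks as partners. The share of ENAP1 peaks with a reChIP peak (19.0%) was, under the first 7 of these in the same order, 9.92%, 14.9%, 15.3%, 26.9%, 14.0%, 2.81% and 18.1%. The median summit distance (43 bp) was 41 bp with −log10 q of at least 1.3, 32 bp with overlap of at least 50% of both peaks and 29 bp with pileup of at least 10. Each alternative changes which peaks or pairs are counted. Of the reChIP peaks in pairs 20.3% had a q above 0.05, and the upper quartile of their pileup was 8 tags, so single sites rest on few tags. No paired analysis was possible because each group has 1 library and no result comes from a test.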

Other observations

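By chromosome, the share of ENAP1 sites with a reChIP peak ran from 17.2% (15.6 to 18.9) on chromosome 5 to 21.1% (19.2 to 23.1) on chromosome 3. Among the 10 ENAP1 sites of highest pileup, 8 were in pairs; the exceptions lay in AT5G11550 (148 tags) and beside EIN2 (142 tags). AT3G10040, with an ENAP1 pileup of 138 tags and 11.6-fold, had a reChIP peak of 8 tags over 1.42.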
